A study of Mus musculus with 15 samples.

Results

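The genes described here are 32 that mark the lens and its fibre cells, out of 20418 gene symbols in the tables of 15 libraries of mouse eyes. They were taken as a list of names: 2 alpha, 6 beta and 8 gamma crystallins, 2 beaded filament proteins, 3 membrane proteins, 6 enzymes and other fibre proteins, and 5 transcription factors. All 32 were found, and all 32 had enough reads to enter every test. The lens is a sac of cells in which an epithelium at the front keeps giving rise to fibre cells. Fibre cells fill with crystallins, lose their nuclei and organelles, and last for life. The alpha crystallins are small heat shock proteins that keep other proteins soluble. The beta and gamma crystallins share a fold and pack densely, and the gamma genes A to F are best known from fibres formed before and around birth.

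The series asks how Egr1, a zinc finger factor induced early by growth signals, acts in eyelid development on different genetic backgrounds. All mice were BALB/c by label. Their Egr1-/- allele came from C57BL/6 mice and had been crossed onto BALB/c, first over 5 generations and in another backcross over 4. RNA came from whole eyes with their eyelids, so the lens was 1 tissue among many. The groups were newborn wild type (2 libraries), newborn Egr1-/- (2), adult wild type (1), adult Egr1-/- (2) and, from day 3 after birth, 4 mice with a library for each eye. The Egr1-/- mice E24 and E29 each had 1 eye with open and 1 with closed lids. The Egr1-/- mouse E32 had open lids on both sides, and the Egr1+/- mouse E28, the only heterozygote, had closed lids on both. The age of the adults and the animals behind the newborn and adult libraries were not given in the sources used here. The labels mention both fixation in aldehydes and storage in RNAlater, and which of these the sequenced eyes had is not clear from them.

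Between 20334849 and 43907093 reads per library fell in transcripts. The reads of Egr1 ran against the labels: they stood at 33.2 to 60.8 CPM in the 3 wild-type libraries and at 156 to 366 CPM in the 10 libraries labelled Egr1-/-, with 99.0 and 110 CPM in the heterozygous eyes. The Egr1-/- libraries are therefore called labelled knockout throughout. Levels are given in RPKM units recomputed from the counts (reads per length of exon and library size, the latter scaled by TMM over all libraries), so that genes can be compared with each other. One library stood apart. Newborn labelled-knockout replicate 1 had 0.152% of its reads in the 32 genes (95% Wilson interval 0.1503 to 0.1533%), against 12.0 to 15.9% in the other newborn libraries and 9.30 to 12.6% at day 3. Adult labelled-knockout replicate 1 had 1.26%, against 5.65% in the adult wild type and 7.27% in replicate 2. In whole eyes, fewer lens cells and less RNA per lens cell cannot be told apart. Intervals of this kind cover counting error only.

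The stretches before the transcription starts are shown for the 6 clustered gamma crystallin genes, since Crygd, Cryge and Crygf share long runs of bases there and differed in the adult eye, and for Cryaa, Crybb1 and Lgsn, whose levels took different courses with age. They run from 120 bases before to 20 bases after the RefSeq start, 5′ to 3′ on the strand of the gene, in build GRCm38.p6 (the authors' files used mm8). Capitals mark TATATA or TATAAA, forms of the TATA box, and TGCTGA, the core of the element bound by large Maf proteins.
Cryga (chr1:65103344-65103483, minus strand): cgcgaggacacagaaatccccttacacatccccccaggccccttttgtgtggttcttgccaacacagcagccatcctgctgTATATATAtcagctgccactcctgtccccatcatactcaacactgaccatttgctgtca
Crygb (chr1:65082271-65082410, minus strand): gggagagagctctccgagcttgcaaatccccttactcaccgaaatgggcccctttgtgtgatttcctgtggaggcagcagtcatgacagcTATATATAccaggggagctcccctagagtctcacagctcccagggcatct
Crygc (chr1:65073513-65073652, minus strand): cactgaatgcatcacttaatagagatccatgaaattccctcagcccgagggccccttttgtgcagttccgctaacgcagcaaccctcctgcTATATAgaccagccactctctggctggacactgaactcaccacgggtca
Crygd (chr1:65063421-65063560, minus strand): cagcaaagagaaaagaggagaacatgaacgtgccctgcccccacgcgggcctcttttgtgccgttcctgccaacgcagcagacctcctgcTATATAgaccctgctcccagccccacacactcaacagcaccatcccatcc
Cryge (chr1:65051144-65051283, minus strand): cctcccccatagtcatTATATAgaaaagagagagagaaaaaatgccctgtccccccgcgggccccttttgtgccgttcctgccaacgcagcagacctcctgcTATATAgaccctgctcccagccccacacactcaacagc
Crygf (chr1:65926402-65926541, plus strand): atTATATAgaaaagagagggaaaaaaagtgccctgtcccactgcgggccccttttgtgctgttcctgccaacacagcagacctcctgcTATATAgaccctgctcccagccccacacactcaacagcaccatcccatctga
Cryaa (chr17:31677811-31677950, plus strand): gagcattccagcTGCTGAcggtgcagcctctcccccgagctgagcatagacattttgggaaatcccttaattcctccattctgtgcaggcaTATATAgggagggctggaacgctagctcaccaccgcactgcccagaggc
Crybb1 (chr5:112255700-112255839, plus strand): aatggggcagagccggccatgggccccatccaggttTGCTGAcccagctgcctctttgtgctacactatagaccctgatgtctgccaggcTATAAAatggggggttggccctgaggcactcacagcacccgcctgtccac
Lgsn (chr1:31176315-31176454, plus strand): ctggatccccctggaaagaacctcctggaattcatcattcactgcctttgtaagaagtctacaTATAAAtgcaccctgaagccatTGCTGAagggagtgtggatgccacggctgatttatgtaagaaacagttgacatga

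RefSeq promoters of 250 bases before and 50 after the start were at hand for 29 of the 32 genes (33 promoters), and not for Cryab, Maf and Hsf4. TATATA, searched on both strands, was found in 8 of 15 crystallin promoters and in 5.67% of all 32851 promoters. TATAAA was found in 4 of 15 and in 13.6% of all. TGCTGA or its complement was found in 10 of 15 and in 19.5% of all. GAANNTTC, a form of the heat shock element that Hsf4 can bind, was found in 0 of 15 and in 7.86% of all. These are matches of letters and not measured binding. The longest run of identical bases within the 300 bases was 78 between Crygd and Cryge, 64 between Crygd and Crygf, and 55 between Cryge and Crygf. It was at most 20 between any other pair of the 6 genes.

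**Figure D1:**
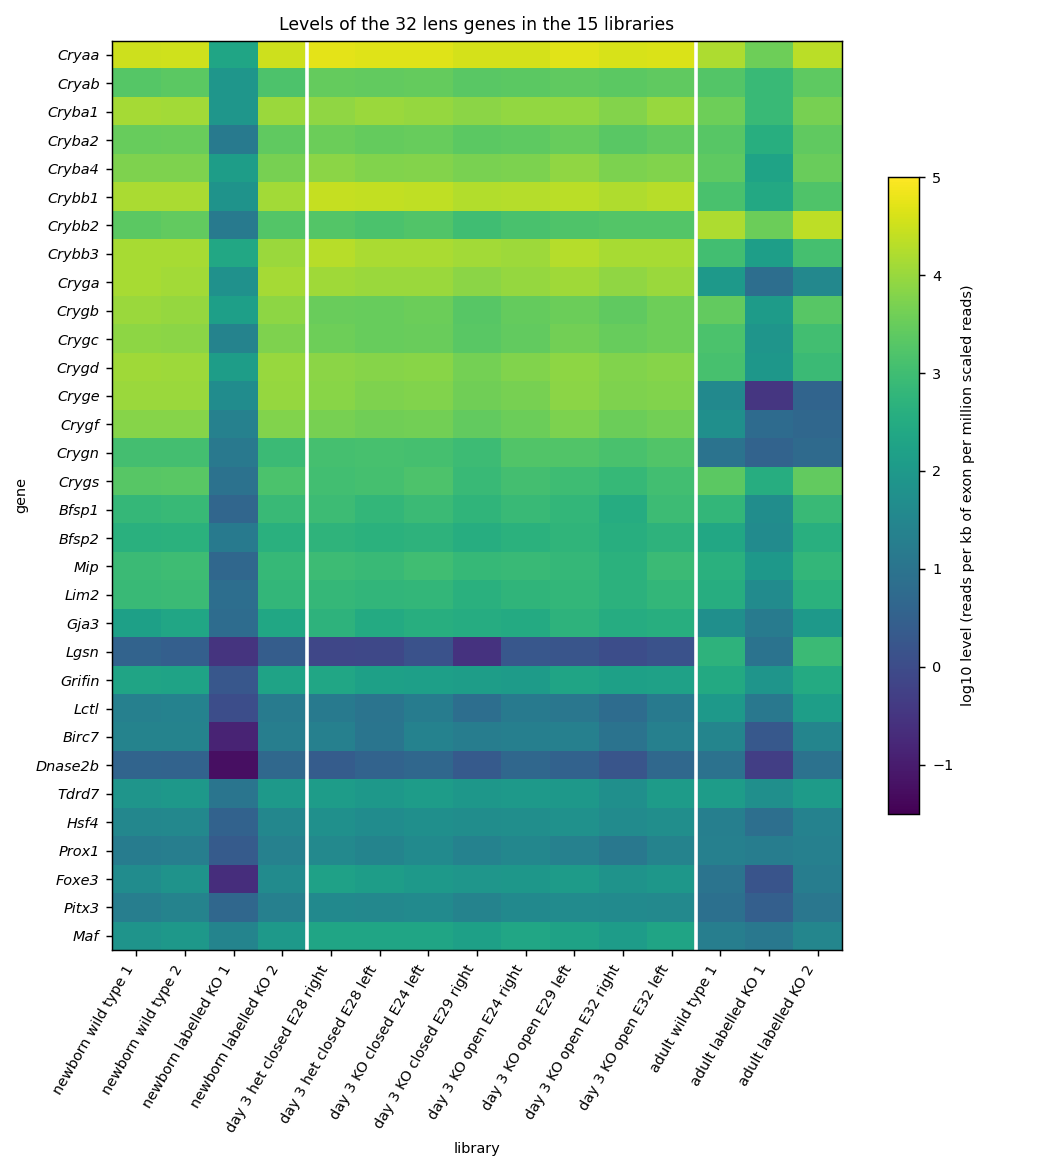
Levels of the 32 lens genes (rows, by role) in the 15 libraries (columns; white lines part newborn, day 3 and adult eyes), coloured by log10 of the level in TMM-scaled RPKM. The column of newborn labelled-knockout replicate 1 is dark for nearly all genes, the adult columns are dark for Cryga, Cryge, Crygf and Crygn, and Lgsn is bright in adult eyes only.

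Alpha crystallin A was the most abundant transcript of the tables by this measure in 13 of 15 libraries. Its level was 31430 and 34130 in newborn wild-type eyes and 31580 in labelled-knockout replicate 2, but 212 in labelled-knockout replicate 1. At day 3 it ran from 37210 to 54140 over the 8 eyes, with a median of 45320. In adult eyes it was 16070 in the wild type and 3597 and 20630 in labelled knockouts. The day 3 eyes lay above every newborn eye by this measure. By the authors' own RPKM these ages overlapped, with 29610 in the lowest day 3 eye and 30890 in the highest newborn library. The adult eyes lay below the newborn ones except for the library nearly without lens reads. How many of all genes part the ages without overlap was not counted, here or for the genes below. Cryab, the second alpha crystallin, which is also found in muscle and other tissues, moved less. It was 1933 and 2308 in newborn wild-type eyes, 81.5 and 1542 in the labelled knockouts, 2112 to 2964 at day 3, 1843 in the adult wild type and 783 and 2449 in adult labelled knockouts.

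The beta crystallins took different courses with age. Crybb2, the beta crystallin best known from the mature lens, was 2353 and 2791 in newborn wild-type eyes, 14.4 and 1773 in labelled knockouts, 1010 to 1867 at day 3 (median 1668), 15810 in the adult wild type and 3520 and 22670 in adult labelled knockouts. Every adult library lay above every younger one, the adult library low in lens reads included. Crybb1 was 14690 and 15220 in newborn wild-type eyes, and 70.1 and 12280 in labelled knockouts. At 16990 to 26790 at day 3, it lay above all newborn libraries. It was 1343 in the adult wild type and 272 and 1588 in adult labelled knockouts. Crybb3 followed it, with 13860 and 13890 in newborn wild-type eyes, 11410 to 19780 at day 3, and 1102, 140 and 1234 in the adults. The day 3 range of Crybb3 overlapped that of the newborn eyes, and both genes were far lower in the adult eyes than in any younger one apart from newborn labelled-knockout replicate 1. Cryba1, Cryba2 and Cryba4 were lower in the adult than in the newborn eyes, leaving out the library nearly without lens reads, but by less: in wild-type eyes Cryba1 went from 13000 and 12240 to 3604, Cryba2 from 3160 and 3348 to 2014, and Cryba4 from 5573 and 5549 to 2406.

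The clustered gamma crystallins were high around birth and split into separate sets in the adult. In newborn wild-type eyes their levels were 14230 and 12730 for Cryga, 10720 and 9380 for Crygb, 7687 and 7370 for Crygc, 11560 and 11180 for Crygd, 10670 and 10500 for Cryge, and 6562 and 6457 for Crygf. In the adult wild type Crygb stood at 2825, Crygc at 1431 and Crygd at 1254. There, Cryga stood at 102, Cryge at 38.5 and Crygf at 55.3. The gap between these sets was seen again in adult labelled-knockout replicate 2, with 2037, 1078 and 840 for Crygb, Crygc and Crygd against 33.8, 4.04 and 4.69 for Cryga, Cryge and Crygf. Crygd thus differed here from Cryge and Crygf, with which its printed promoter shares its longest runs. In adult labelled-knockout replicate 1, Cryge had 5 reads and Crygf 82. The reading of single genes is limited by their likeness: the mRNAs of Cryge and Crygf were 96.2% identical, with a longest shared run of 134 bases, Crygd and Cryge 91.4% (180 bases), Crygd and Crygf 90.6% (82 bases), and Crygb and Crygc shared a run of 221 bases. How the authors counted reads that match several of them is not given in the sources used here.

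Crygn and Crygs lie outside the cluster, and their courses differed. Crygn, a crystallin of mixed beta and gamma structure that the mouse retina expresses too, was 1116 and 1115 in newborn wild-type eyes, 13.5 and 844 in labelled knockouts, 897 to 1759 at day 3, and 9.47, 3.64 and 5.68 in the adults. Crygs, known as the gamma crystallin that lasts into adult life, was 2087 and 2193 in newborn wild-type eyes, 8.95 and 1446 in labelled knockouts, and 727 to 1513 at day 3. It was 2361 in the adult wild type and 364 and 2764 in adult labelled knockouts. Crygn was lower in every adult library than in any younger one, while the levels of Crygs overlapped between newborn and adult eyes.

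**Figure D2:**
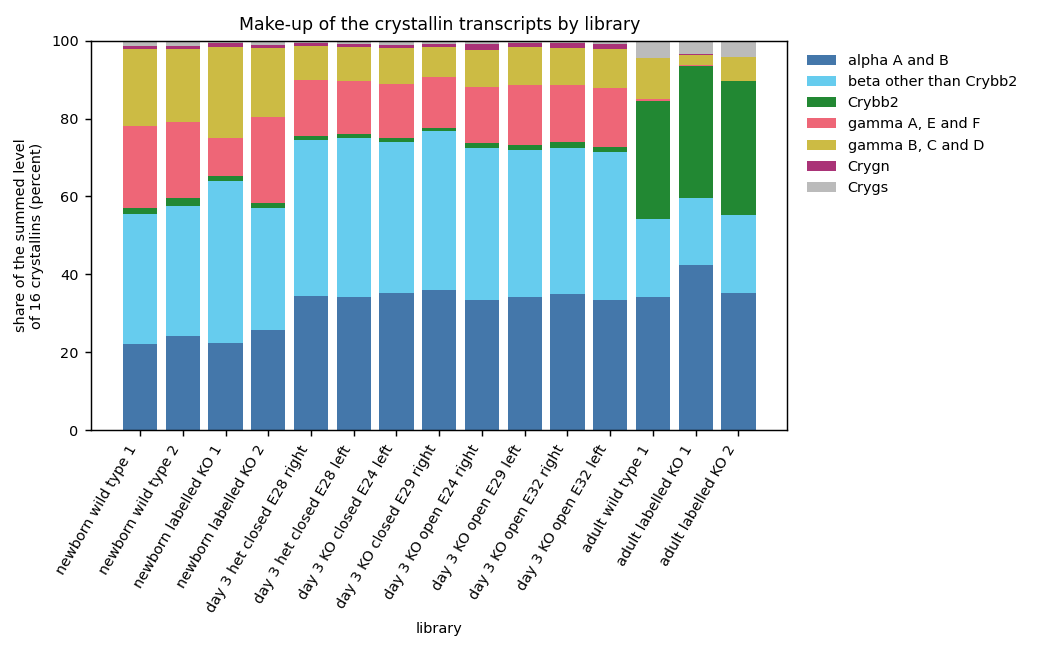
Share of the summed level of the 16 crystallins taken by each class (bars, percent, summing to 100) in each library. The gamma A, E and F share is 9.95 to 22.04% in newborn, 12.9 to 15.6% in day 3 and 0.0647 to 0.375% in adult eyes, and Crybb2 makes up 30.3 to 34.5% in adult eyes.

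The make-up of the crystallin transcripts was described relative to their own sum. As shares of the summed level of the 16 crystallins, the alpha crystallins held 22.2 to 25.7% in the 4 newborn libraries, 33.4 to 35.9% in the 8 eyes at day 3 and 34.3 to 42.4% in the 3 adult ones. The 6 clustered gamma crystallins held 33.1 to 40.8%, 20.8 to 25.3% and 2.85 to 10.9%. Crybb2 held 1.10 to 1.86%, 0.921 to 1.55% and 30.3 to 34.5%. The other beta crystallins held 31.4 to 41.7%, 37.6 to 40.9% and 17.2 to 20.2%. The alpha share was higher and the gamma share lower in every day 3 eye than in every newborn library. The Crybb2 share of every adult library was above that of every younger one, and the shares of the clustered gamma and of the other beta crystallins were below. Within an age the libraries low in lens reads stood apart in part: gamma A, E and F held 9.95% in newborn labelled-knockout replicate 1 against 19.7 to 22.04% in the other newborn libraries, and gamma B, C and D held 2.72% in adult labelled-knockout replicate 1 against 10.5 and 6.01%. Shares sum to 100, so they are descriptions and carry no test.

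The beaded filament proteins Bfsp1 and Bfsp2 build the cytoskeleton of fibre cells. Bfsp1 was 656 and 754 in newborn wild-type eyes, 4.45 and 801 in labelled knockouts, 326 to 896 at day 3 (median 723), 620 in the adult wild type and 49.8 and 802 in adult labelled knockouts. Bfsp2 was 421 and 457, 14.8 and 420, 345 to 565, 246, and 42.7 and 406 in the same order. Apart from the 2 libraries low in lens reads, the Bfsp1 levels of the 3 ages overlapped.

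Of the membrane proteins, the water channel Mip was at 876 and 967 in newborn wild-type eyes, 461 to 990 at day 3 and 418 in the adult wild type. Lim2, a fibre membrane protein, was 784 and 853, 429 to 658 and 346. Gja3, the gap junction protein connexin 46, was 161 and 221 in newborn wild-type eyes, 296 to 496 at day 3 and 56.0 in the adult wild type. Gja3 was higher in all 8 day 3 eyes than in any newborn library (share of all genes not counted), which was not so for Mip or Lim2. Mip lay above Lim2 in 7 of the 8 day 3 eyes. In the low-lens newborn library the levels were 4.57, 6.88 and 6.32.

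Lgsn gave the sharpest contrast with age among the other fibre genes. It encodes lengsin, a relative of glutamine synthetase found in terminally differentiated fibres. Its level was 3.72 and 2.93 in newborn wild-type eyes, 0.297 and 2.64 in labelled knockouts, 0.283 to 1.81 at day 3, 493 in the adult wild type and 9.66 and 860 in adult labelled knockouts. Every adult library lay above every younger one, while adult labelled-knockout replicate 1 held 1.12% of the level in replicate 2, the lowest such share of the 32 genes. Lctl, a relative of lactase and klotho, was 20.8 and 23.7 in newborn wild-type eyes, 6.22 to 16.7 at day 3, and 95.7, 12.6 and 141 in adult wild type and labelled knockouts. Grifin, a galectin-related protein of fibres, was 194 and 191 in newborn wild-type eyes, 120 to 221 at day 3, 273 in the adult wild type and 79.3 in adult labelled-knockout replicate 1. Birc7, an inhibitor of apoptosis, was 25.7 and 26.2 in newborn wild-type eyes and 29.1 in the adult wild type. Dnase2b, the nuclease that breaks down fibre cell DNA, was 3.88 and 3.73 and then 8.72. Tdrd7, a protein of RNA granules whose loss causes cataract, was 78.4 and 94.5 and then 121.

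Among the transcription factors, Maf, which acts on crystallin promoters, stood at 74.0 and 92.5 in newborn wild-type eyes, 27.3 and 99.6 in labelled knockouts, 125 to 219 at day 3 (median 203), 19.4 in the adult wild type and 12.4 and 29.6 in adult labelled knockouts. Foxe3, a forkhead factor of the lens epithelium, was 46.3 and 67.8, 0.230 and 43.8, 69.5 to 161, 10.2, and 1.52 and 18.4 in the same order. Pitx3 was 19.2 and 26.0 in newborn wild-type eyes, 26.2 to 42.8 at day 3 and 7.99 in the adult wild type, and Hsf4 was 32.6 and 34.6, 43.8 to 62.4 and 20.4. By this measure these 4 genes were highest at day 3, where all 8 eyes lay above all 4 newborn libraries. By the authors' own RPKM, Foxe3 (lowest day 3 eye 56.6, highest newborn library 61.4) and Pitx3 (20.9 and 23.5) overlapped. The share of all genes that part these ages in this way was not counted. Prox1, a homeobox factor that is needed for fibre elongation and is also present in retina and lymphatic vessels, was 17.0 and 19.5 in newborn wild-type eyes, 12.7 to 40.0 at day 3 and 21.2 in the adult wild type, with overlapping ages.

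For the comparison of adult with newborn eyes, averaged over the genotype labels, 6 of the 32 genes passed edgeR's quasi-likelihood test, with p-values adjusted over 17592 genes by Benjamini and Hochberg (threshold 0.05). Of these, 1 rose and 5 fell, where 25.3% of all genes tested rose and 24% fell, so the number of members called was below the background. Lgsn rose by 7.71 ± 1.49 (log2 fold change ± SE, 3 adult against 4 newborn libraries, edgeR adjusted p = 0.00454). The genes that fell were Cryge (-9.59 ± 2.40, edgeR adjusted p = 0.0137), Crygf (-8.01 ± 2.05, 0.0153) and Cryga (-7.72 ± 2.14, 0.0207). Crygn (-6.71 ± 1.56, edgeR adjusted p = 0.0102) and Maf (-1.86 ± 0.53, 0.0236) fell as well. The SE of many members was large beside their change: Crybb2 stood at 3.23 ± 1.32 (edgeR adjusted p = 0.0802), Lctl at 2.60 ± 0.98 (0.0615), Crybb3 at -3.33 ± 1.43 (0.0918), Crygd at -3.31 ± 1.52 (0.111) and Crybb1 at -3.12 ± 1.59 (0.145), none of which passed. The median over the 32 genes was -0.77, beside -0.04 over all genes. DESeq2 called 9 of them, 2 up and 7 down, where it called 26.4% of all genes up and 25.7% down.

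These calls depended on single libraries. Only Crygn passed without newborn wild-type replicate 1 or without replicate 2. Leaving out a newborn labelled-knockout library also leaves 1 library in its group, and the members that passed changed there as well. Without labelled-knockout replicate 2 the falls of Cryga, Cryge, Crygf and Crygn came to -4.31, -6.22, -4.49 and -4.19, and without adult labelled-knockout replicate 2 the rise of Lgsn came to 5.00. With the wild-type libraries alone 25 members passed, 4 up and 21 down, beside 25.9% and 26.6% of all genes, and without both libraries low in lens reads 28 passed, 7 up and 21 down, beside 28.4% and 29.7% of all genes. Both of these fits rest on 1 residual degree of freedom, from the 2 newborn wild types, and hold 1 library per adult group. In the wild-type libraries alone the changes were -8.18 for Cryge, -7.13 for Cryga, -6.96 for Crygf, -1.91 for Crygb, 2.55 for Crybb2 and 7.14 for Lgsn. No batch is named in the labels, and age cannot be told apart from any run or dissection that went with it. In adult eyes the summed level of 10 photoreceptor markers was also higher (9834 to 18750, against 27.7 to 439 in newborn eyes), and its part in these values was not tested.

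**Figure D3:**
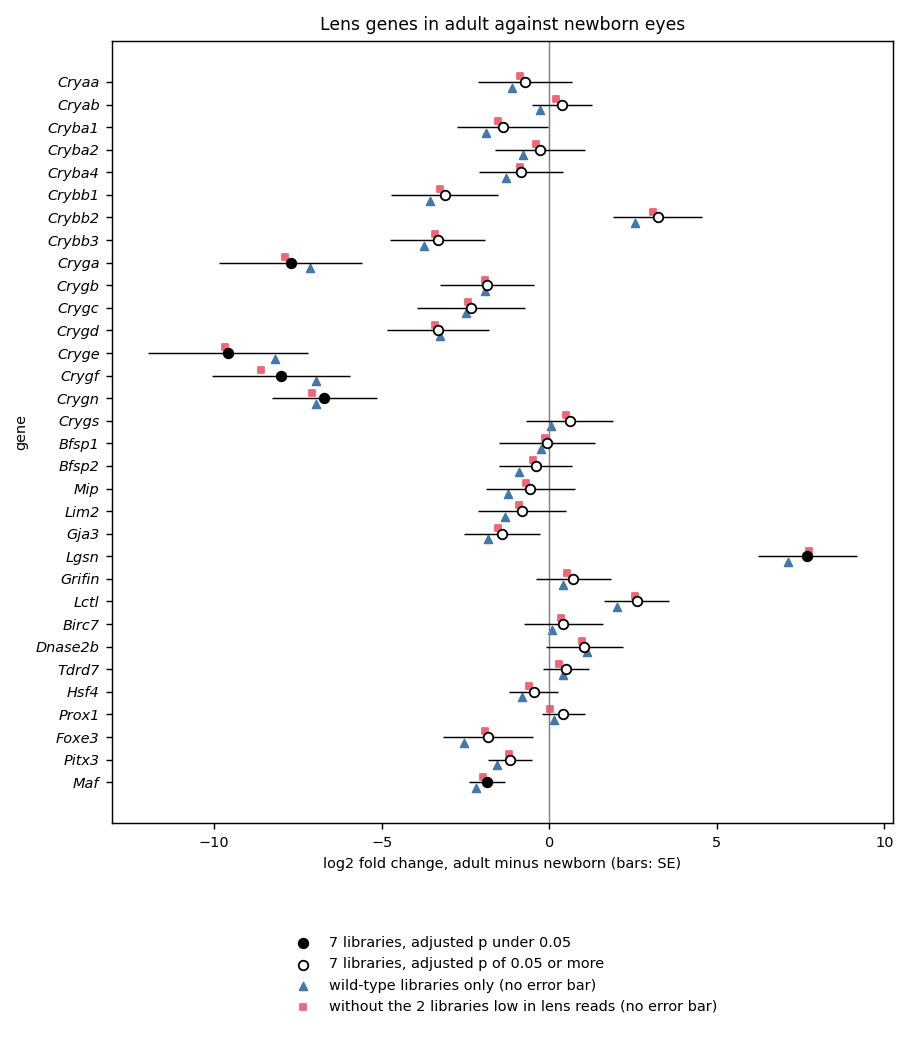
Log2 fold change of each lens gene, adult minus newborn (x axis; bars, SE of the fit over 7 libraries; filled circles passed). Triangles (wild-type libraries only) and squares (without the libraries low in lens reads) stay close to the circles, with Cryge, Crygf, Cryga and Crygn at the far left and Lgsn at the far right.

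Of the 36 other lens genes chosen beside the 32, 34 had enough reads. From newborn to adult 7 of them rose (20.6%, beside 25.3% of all genes) and 11 fell (32.4%, beside 24%). Those with the smallest p were Rbpj, which transmits Notch signals (log2 fold change -2.16 ± 0.15), Galk1, a galactokinase (-2.05 ± 0.15), the water channel Aqp5 (6.59 ± 0.58) and Fyco1, an autophagy adaptor (1.69 ± 0.18), with edgeR adjusted p from 5.48e-05 to 0.000314. Many of these genes are active in other parts of the eye as well.

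Day 3 was set beside newborn after the data had been seen, with the eyes of each mouse summed (4 mice against 4 libraries). The contrast gave the lone heterozygous mouse, E28, as much weight as all labelled-knockout mice together. Newborn wild type and labelled knockout were weighted alike. No wild type was at hand at day 3. Age therefore cannot be told apart here from heterozygote against wild type, or from any run or dissection that went with it. Maf rose by 1.44 ± 0.40 (edgeR adjusted p = 0.0351) and was the 1 member of 32 that passed, where 28.3% of all 17966 genes did. Pitx3 stood at 1.13 ± 0.43 (edgeR adjusted p = 0.0874). The median over the members was 0.48, beside -0.04 over all genes. Maf did not pass without newborn wild-type replicate 1 or 2 or without mouse E24 or E29, and no member did then. Leaving out a newborn labelled-knockout library leaves 1 library in that group, and the members that passed changed with the library left out. Of the 34 other lens genes tested, 11 rose and 1 fell by edgeR, where 16.9% of all genes rose and 11.4% fell. Of all genes, 5092 passed, but 158 did without newborn wild-type replicate 1. The other lens genes were led by the receptor Epha2 (1.22 ± 0.15), the chromatin remodeller Smarca4 (1.42 ± 0.21), the eye field factor Six3 (2.28 ± 0.38) and Notch2 (0.95 ± 0.17), with edgeR adjusted p from 0.00535 to 0.0111.

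In the comparison of labelled-knockout with wild-type newborn eyes, all 32 genes had a negative log2 fold change and 0 passed edgeR's test, where 24% of all genes did. At an unadjusted p under 0.05 there were 0, and DESeq2 called 0. The median was -1.20, beside -0.07 over all genes. For Cryaa the size of the change rested on replicate 1. It stood at -1.03 ± 1.75 (edgeR adjusted p = 0.693), at -0.04 without that library and at -7.24 without replicate 2. Each of those fits leaves 1 newborn labelled-knockout library, so only effect sizes are given here from them. Both labelled-knockout libraries lay below both wild types for 23 of 32 members, as for 35.3% of all genes, and 0 members lay above. For replicate 2 alone, placed next, the share of all genes was not counted, so its counts have no background. Labelled-knockout replicate 2 lay below both wild types for 23 members, above both for 6 (Bfsp1, Gja3, Dnase2b, Tdrd7, Prox1 and Maf) and between them for 3 (Cryaa, Cryga and Pitx3). Its levels were 801 against 656 and 754 for Bfsp1, 237 against 161 and 221 for Gja3, 10310 against 13000 and 12240 for Cryba1, 5487 against 7687 and 7370 for Crygc and 1446 against 2087 and 2193 for Crygs.

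**Figure D4:**
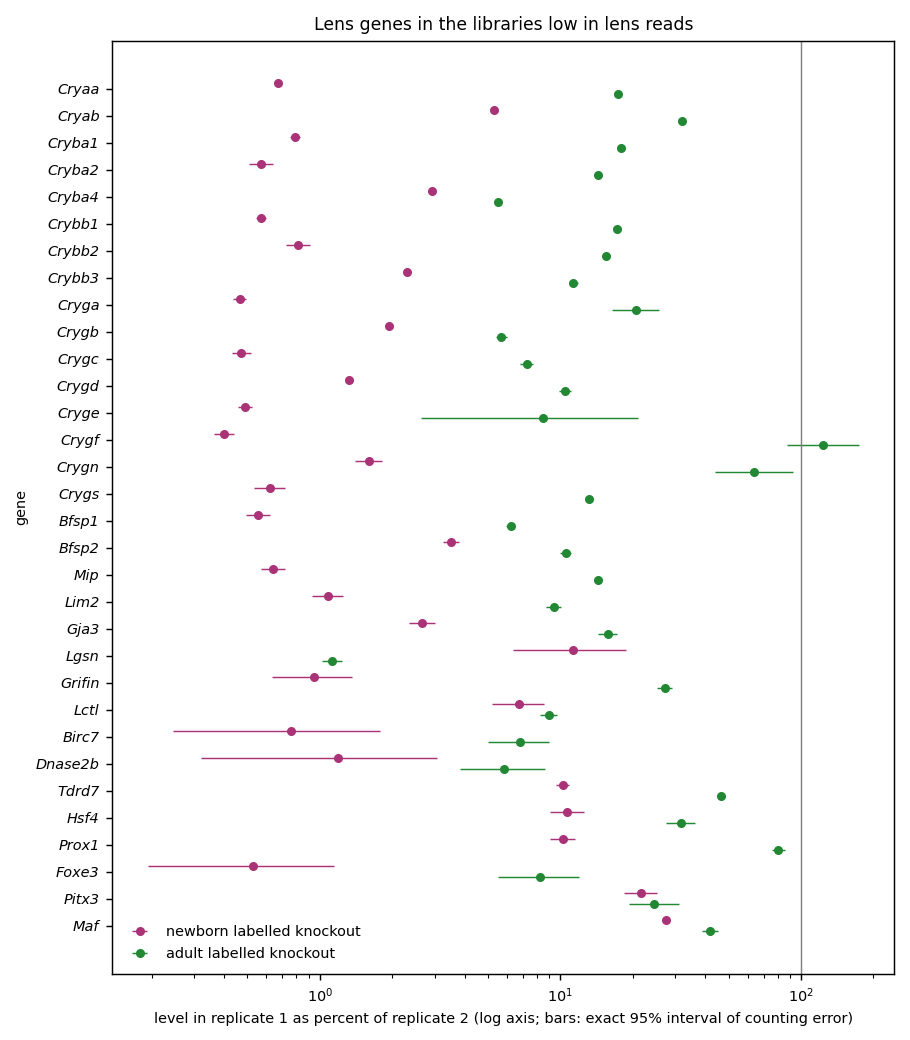
Level in labelled-knockout replicate 1 as percent of replicate 2 (x axis, log scale; bars, exact 95% intervals of counting error) for each lens gene in newborn and adult eyes; the grey line marks equal levels. Newborn crystallins lie between 0.400 and 5.29%, Maf and Pitx3 at 27.5 and 21.6%, and in the adult Lgsn lies lowest at 1.12%.

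What newborn labelled-knockout replicate 1 retained differed between genes. Relative to replicate 2, Cryaa stood at 0.673% (exact 95% interval 0.658 to 0.688%), Cryga at 0.464% and Crygf at 0.400%. Cryba4 stood at 2.92%, Crybb3 at 2.31% and Crygb at 1.94%, while Crybb1 stood at 0.571% and Crygc at 0.472%. Cryab stood at 5.29% (5.09 to 5.49%). These intervals cover counting error only, and no replicate of that state is at hand. Between the 2 newborn wild types the same ratio ran from 83.8 to 114% over the crystallins. The factors were retained more, with 27.5% for Maf, 21.6% for Pitx3, 10.7% for Hsf4 and 10.2% for Prox1. Foxe3, with 6 reads, was the exception at 0.527% (0.193 to 1.15%). Tdrd7 stood at 10.2%, Lgsn at 11.3% from 17 reads, and Birc7 and Dnase2b had 5 and 4 reads. None of the other markers examined was at 0 reads in that library. The summed level of its 7 epidermal markers was 3728, beside 3389 in replicate 2 and 261 and 615 in wild type, that of 6 skeletal muscle markers was 3519, beside 4228, 1731 and 2100, and that of 10 photoreceptor markers was 27.7, beside 93.8, 382 and 439. Their part in the lens values was not tested.

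Of the 34 other lens genes tested, 8 rose and 6 fell in newborn labelled-knockout eyes by edgeR, where 14.6% of all genes rose and 9.38% fell. Of all genes, 4226 passed here, but 0 did when newborn wild-type replicate 1 was left out, 728 when its fellow replicate 2 was, and 2089 when labelled-knockout replicate 1 was. Notch2 (1.34 ± 0.17) and Gcnt2, an enzyme that branches glycans and is mutated in a form of cataract (1.75 ± 0.24), rose, and the eye development factors Mab21l1 (-1.74 ± 0.26) and Six3 (-1.54 ± 0.29) fell, with edgeR adjusted p from 0.00362 to 0.0108. Many of the other lens genes are active elsewhere in the eye too. The summed level of the inner retina markers was 107 and 131 in labelled knockouts, beside 326 and 358 in wild type. Its part in these values was not tested.

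In adult eyes 0 of the 32 genes passed edgeR's test of labelled knockout against wild type, where 0% of 17592 genes did. At an unadjusted p under 0.05 there were 0, and DESeq2 called 0. The median was -0.43, beside 0.02 over all genes, with 30 of 32 values below 0. Cryge stood lowest at -4.10 ± 2.18 (edgeR adjusted p = 1). Both labelled-knockout libraries lay below the wild type for 9 members, namely Cryga to Crygf, Crygn, Birc7 and Tdrd7, and this held for 33.6% of all genes. Replicate 2 lay below the wild type for these 9 members and above it for Cryaa, Crybb2 and Lgsn, among others. This sets 1 library against 1, and its cause was not tested. Without both libraries low in lens reads, 1 adult labelled-knockout library stands against 1 wild type. The spread of that fit, with 1 residual degree of freedom, comes from the 2 newborn wild types alone, so its calls are not read. Epha2 (0.77 ± 0.30), Jag1, Gcnt2 and Sox2 had the smallest p of the other lens genes, and each had an edgeR adjusted p of 1. Adult labelled-knockout replicate 1 held 14.3% of the level of replicate 2 at the median of the 32 genes, with Crygf at 123% (exact 95% interval 87.7 to 174%, 82 against 63 reads), Prox1 at 80.6% and Crygn at 64.0% at the upper end. The summed level of its 5 corneal markers was 786, beside 4309 in replicate 2 and 6507 in wild type. Of these, Krt12 (1.42, beside 2085 and 3472), Aldh3a1 and Kera were lower. Lum (67.51, beside 57.85 and 53.96) and Dcn (295.1, beside 255.3 and 251.8) were higher. The summed level of 4 macrophage markers was 390, beside 86.1 and 60.98. Their part was not tested.

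The difference of the genotype effect between adult and newborn eyes passed edgeR's test for 0 of the 32 genes, where 2.8% of all genes passed. At an unadjusted p under 0.05 there were 0, and DESeq2 called 0. Some members passed without newborn labelled-knockout replicate 2 or without both libraries low in lens reads, in fits that leave 1 newborn labelled-knockout library. The median was 0.68, beside 0.08 over all genes. Jag1, Sox2, Mab21l1 and Notch2 led the other lens genes. They did not pass edgeR's test, with adjusted p from 0.0645 to 0.0793, and passed that of DESeq2, with adjusted p from 0.000774 to 0.00349. DESeq2 called 6 of the 34 other lens genes here, 8.82% up and 8.82% down, beside 5.22% and 6.9% of all genes. By edgeR 0 passed, with 10 at an unadjusted p under 0.05, as had 3638 of all 17592 genes.

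Over the 8 eyes at day 3 the spread differed between genes. The coefficient of variation was 14.5% for Cryaa, 11.9% for Cryab, 11.8% for Hsf4 and 14.7% for Lim2. It was largest for Lgsn (44.3%), Dnase2b (37.1%), Lctl (32.2%) and Prox1 (30.8%). In order of their mean levels, Cryaa stood at 44950 ± 6540 (SD, n = 8 eyes of 4 mice), Crybb1 at 21360 ± 3677, Crybb3 at 15090 ± 2866, Cryga at 10040 ± 1590 and Cryba1 at 8726 ± 1360. Within an eye, Cryaa lay above Crybb1, Crybb1 above Crybb3 and Crybb3 above Cryga in 8 of 8 eyes, and Cryga above Cryba1 in 7 of 8, although the ranges over eyes overlapped for Crybb1 and Crybb3, for Crybb3 and Cryga, and for Cryga and Cryba1. Eyes of 1 mouse are not independent.

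Open and closed lids were compared with the mouse as a block, so that only E24 and E29 bear on the contrast. By edgeR 0 of the 32 genes passed, where 0.514% of 15754 genes did. At an unadjusted p under 0.05 there was 1, Crygn. DESeq2, which called 2.19% of all genes up and 0.146% down, called 1 member, again Crygn. Its level was 1716, 1679, 1383 and 1759 in open eyes (E24, E29, E32 right and E32 left), 1214 and 897 in closed labelled-knockout eyes and 1226 and 1276 in the heterozygous eyes. Every open eye lay above every closed eye. The log2 fold change was 0.72 ± 0.19 (edgeR adjusted p = 0.297, DESeq2 adjusted p = 0.0145), and 0.93 without E24 and 0.51 without E29. Crygn was the 1 member for which open and closed labelled-knockout eyes did not overlap upward, as was so for 11.2% of all genes.

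The mice disagreed on the other members. In E24 the open eye was lower than the closed one for 28 of 32 genes, with a median of 83.7% of the closed eye. In E29 it was higher for 30 of 32, with a median of 148%. Crygn, Lgsn, Dnase2b and Maf were higher in the open eye of both mice, and Mip and Prox1 were lower in both. Crygn stood at 141% in E24 and 187% in E29, and Lgsn at 134% and 567%, from a level of 0.283 in the closed eye of E29. In E28, with both lids closed, the right eye was higher than the left for 26 of 32 genes, at a median of 118%, although the lids of both were alike. The share of all genes that were higher or lower in the same eye was not counted for these mice. These counts of members therefore have no background. In the fit, the median log2 fold change over members was 0.19, beside 0.02 over all genes. The summed level of the 7 epidermal markers was 1658 to 6634 in open eyes and 285 to 569 in closed ones, that of 7 inner retina markers was 107 to 530 and 483 to 576, and their part in these values was not tested. Of the other lens genes 0 passed by edgeR, with 2 at an unadjusted p under 0.05 and 1 by DESeq2. The smallest p were those of Fgfr3, a fibroblast growth factor receptor (1.14 ± 0.21, edgeR adjusted p = 0.112), Gcnt2, Aqp5 and Nhs.

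**Figure D5:**
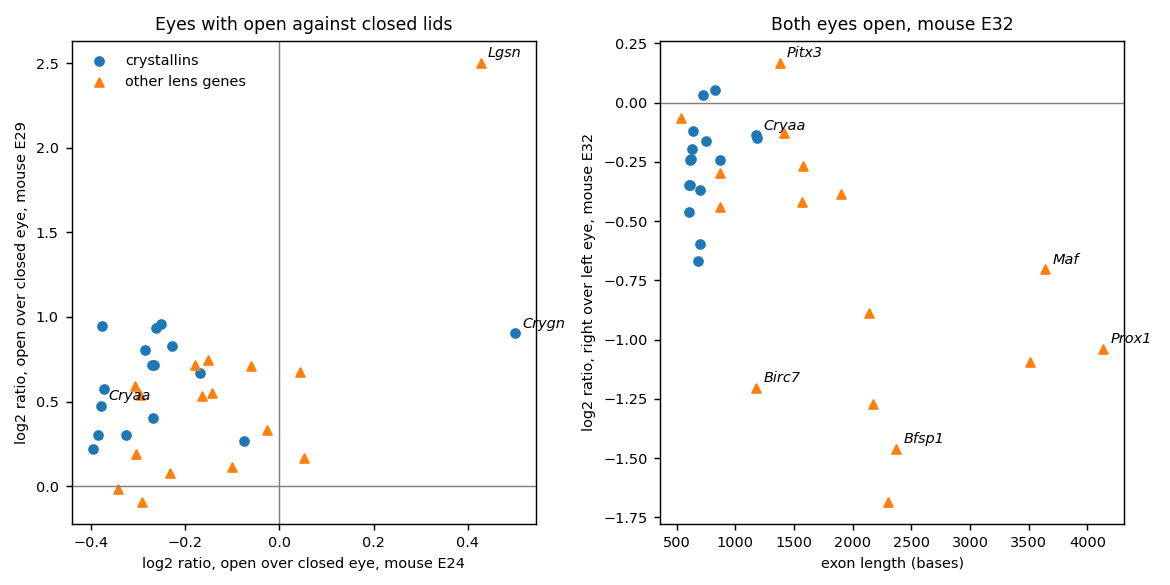
Left, log2 ratio of the open to the closed eye for each lens gene in mouse E24 (x axis) and E29 (y axis); most points lie left of 0 and above 0, and Crygn and Lgsn lie at the right. Right, log2 ratio of the right to the left eye of E32, both open, against exon length in bases; the 7 genes longer than 2000 bases lie lower (median -1.09) than the 17 shorter than 1000 bases (median -0.24).

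The eyes of E32, both open, differed more in some members than in others. The right eye held 91.0% of the Cryaa level of the left, but 36.4% for Bfsp1, 31.2% for Dnase2b, 41.4% for Lctl, 43.5% for Birc7, 46.8% for Tdrd7 and 48.7% for Prox1. Exon lengths were 1176 (Cryaa), 2372 (Bfsp1), 2298 (Dnase2b), 2171 (Lctl), 1177 (Birc7), 3510 (Tdrd7) and 4136 (Prox1) bases. Members with under 1000 bases of exon had a median log2 ratio of -0.24 (17 genes) and those over 2000 bases one of -1.09 (7 genes). Over all 14050 genes with a mean level of at least 1, the log2 ratio had a Spearman correlation of -0.23 with exon length, a description across genes that share 2 libraries, with medians of 0.12 under 1000 bases and -0.10 over 3000. The correlation was 0.16 between the eyes of E28, where the medians of these 17 and 7 members were 0.22 and 0.39. The part of transcript length in these values was not tested. The left eye of E32 also had the lowest summed photoreceptor markers of the day 3 eyes (17.3, against 108 in its right eye and 187 to 421 in the others).

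Labelled-knockout and heterozygous mice at day 3 were compared on the summed reads of each mouse, 3 against 1, with the lone heterozygous mouse assumed to vary like the others. By edgeR 0 of 32 genes passed, where 0% of 16453 did. At an unadjusted p under 0.05 there was 1, Foxe3, and DESeq2 called 0. Foxe3 was 161 and 128 in the heterozygous eyes and 69.5 to 116 in the 6 labelled-knockout eyes, at -0.69 ± 0.22 (edgeR adjusted p = 0.999). Crybb1 was 26790 and 25600 against 16990 to 23570, at -0.38 ± 0.19 (edgeR adjusted p = 0.999). Foxe3 and Crybb1 were the members whose labelled-knockout eyes all lay below both heterozygous eyes, as was so for 4.42% of all genes. The median over members was -0.14, beside 0.03 over all genes. Of the other lens genes 0 passed by edgeR or DESeq2 and 0 had an unadjusted p under 0.05, with Fgfr3, Meis1, Aqp1 and Six3 at the smallest p.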

How the data were processed

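Poly(A)+ RNA of whole mouse eyes was sequenced by Illumina from PCR-amplified libraries that carry no strand information. Per the submitters' processing notes, CASAVA 1.8, Bowtie 0.12.9, TopHat2 2.0.11, SAMtools and build mm8 were used. The counting tool and annotation are not given in the sources used here. The deposited tables held the authors' raw read counts and their RPKM for 24373 RefSeq transcripts, without replicates pooled. The RPKM rested on library totals the authors chose and served only as a check. Each symbol is represented by its transcript of highest mean count.

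Counts were fitted in R 4.3.3 with edgeR 4.0.16 (TMM, filterByExpr, quasi-likelihood test, adjusted p of 0.05). The SE is the log2 fold change over the square root of F. The 4 newborn and 3 adult libraries shared 1 fit, in which the lone adult wild type was assumed to vary like the others. Newborn and adult labels name no animals, so p-values in those fits reflect differences among libraries that may be technical. The script was tested on simulated data. Alternatives were DESeq2 1.42.0, its size factors, no filter, each library or mouse left out, scaling to the members' reads, a replicate block, 1 genotype only, the mouse not fitted, and, added after seeing the data, leaving out both libraries low in lens reads. All 32 members, Egr1 and up to 4 of the other lens genes per comparison with the smallest p were named. Of the marker lists, the lymphatic and inner retina markers are reported with the other observations. The members and lists were chosen with earlier results of these data known.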

Additional observations from a re-analysis of the deposited data

Results flagged for a closer look

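Among the 4 open eyes at day 3, the level of Birc7 in the right eye of E32 was 9.31, while the others lay at 20.01, 20.9 and 21.4. The gap to the nearest of them was 0.884 of the whole range, above the critical value for 4 samples. This rule flags about 1 group in 20 where values are independent. The 4 eyes include both of E32, and the 32 genes share the same libraries. The cause of the low value was not tested. The genotype effect did not pass the test of a difference between adult and newborn eyes for any of the 32 genes by edgeR or DESeq2.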

How the results depend on the processing

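Leaving out 1 newborn or adult library, or both libraries low in lens reads, leaves groups of 1 library. The counts of members passing in this section, from such fits and from the others, are given without the share of all genes. They show how calls depend on single libraries and on the fit, and are not results about the members. Counts of members passing kept to within 1.5 times except as follows, and the cause was not tested. In newborn labelled knockout against wild type the count was 0, and 8 without both libraries low in lens reads, and 0 to 24 with 1 library left out. The labels do not say whether the newborn replicate numbers pair the libraries. The differences between replicates had a correlation of 0.0663 across genes, which cannot settle this, and a replicate block gave 2 members. In adult labelled knockout against wild type it was 0, and 6 without both such libraries. Adult minus newborn gave 6, and 25 with wild-type libraries only, 0 with labelled-knockout libraries only, 0 when scaled to the members' reads, 28 without both such libraries and 1 to 18 with 1 library left out. The genotype effect between ages gave 0, and 15 without both such libraries and 0 to 5 with 1 left out. Open minus closed gave 0, and 1 with DESeq2. Day 3 minus newborn gave 1, and 2 with DESeq2, 0 when scaled to the members' reads, and 0 to 31 with 1 library or mouse left out. Cryaa in adult labelled knockout against wild type (-0.37) turned to 0.068 when scaled to the members' reads and to 0.38 without both low-lens libraries, with -2.13 to 0.40 when 1 library was left out. Maf in day 3 minus newborn turned to -0.88 when scaled to the members' reads. That scaling moves all genes, to a median of 5.54 in newborn labelled knockout against wild type, with 1 of the 4 libraries holding few lens reads.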

Other observations

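The other tissues in the eyes varied as well. The summed level of 7 inner retina markers was 107 and 131 in newborn labelled-knockout eyes, 326 and 358 in newborn wild type, 107 to 576 at day 3 and 302 to 349 in adult eyes. That of 3 lymphatic markers was 39.8 to 93.9 over the 15 libraries. In newborn labelled-knockout replicate 1 Cryaa ranked 184th of all genes by level, and the first was H19, an imprinted RNA of growing embryonic tissue.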
